A study of Mus musculus with 18 samples.

Results

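The genes described here encode the motile cilia of the airway epithelium, the beating organelles that carry mucus and trapped particles out of the lung. They were followed in mouse lung after oral exposure to the 4PAH-Mix, a defined mixture of benzo(a)pyrene (BaP), benz(a)anthracene, benzo(b)fluoranthene and chrysene. The members were chosen by name, as 36 regulators and structural parts of motile cilia, with earlier results of these data known. Of these 36 genes, 32 had at least 1 probe that could be named through a RefSeq accession, with 43 probes in all among the 55681 probes of the array that are not controls. Where a gene had several probes, the one with the highest mean Cy5 intensity stands for it. Dnah3 and Dnah12 (dynein heavy chains of the inner arm), Lrrc23 (a radial spoke protein) and Ccdc40 (the partner of Ccdc39) had no probe that could be named and were not analysed here.

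The study asked how the lung transcriptome responds to mixtures of polycyclic aromatic hydrocarbons (PAHs), here with 3 doses against the solvent. Male Muta™Mouse animals (a transgenic strain on a BALB/C-DBA/2 background), about 12 weeks old, were gavaged daily over 28 days, and lung was taken 72 hours after the last dose. The vehicle group of 5 mice (1 to 5) received olive oil without PAHs. The same oil carried the mixture, dosed in mg of BaP equivalents/kg-bw/day, at 12.5 to 4 mice (6, 7, 9 and 10, low dose), at 25 to 5 mice (11 to 15, medium dose) and at 50 to 4 mice (16, 17, 18 and 20, high dose). All groups thus share the transgenic strain, the sex, the gavage and the oil. Each mouse had its own array, on which its lung RNA, labelled with Cy5, competed with Cy3-labelled Universal Mouse Reference RNA from 11 mouse cell lines. Every level below is a log2 ratio of lung RNA to this reference, normalized by loess within the array, so that 0 means equal abundance and 2 means 4-fold more in lung, and every difference is between such ratios. RNA came from random sections of the lung, in which airway epithelium is one tissue among many. In such bulk RNA, fewer ciliated cells and less RNA per ciliated cell cannot be told apart.

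A motile cilium is built on a ring of microtubule doublets around a central pair. Outer and inner dynein arms on the doublets provide the force, while radial spokes, the central apparatus and the nexin-dynein regulatory complex set the pattern of the beat. In multiciliated airway cells these parts are made together under the transcription factor Foxj1 and the RFX factors Rfx2 and Rfx3, which bind paired DNA elements known as X-boxes. Club cells, the secretory cells of mouse airways, lie beside the ciliated cells, and basal cells can give rise to both.

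Because Rfx2 and Rfx3 belong to the group, the promoters of the members were searched for the X-box. A promoter entry in RefSeq (GRCm38.p6), a window of 300 bases from 250 before to 50 after the start site, was found for 31 of the 36 genes. The single element GTTGCC, read on both strands, was present in 15 of the 31 (48.4%), against 14.1% of the windows of 27025 genes. An X-box with both elements (GTTNCC, then 0 to 3 bases, then GGNAAC, with at most 1 mismatch in the fixed letters) was present in 14 of 31 (45.2%), against 6.15% of all genes. This paired pattern overlaps the single element where it holds GTTGCC or GGCAAC. The forkhead core GTAAACA was searched because Foxj1 is a forkhead factor, and it was present in 2 of 31 (6.45%), against 4.05%. A match is a description of letters and not a binding site. The 6 genes whose paired pattern lay wholly before the start site and within 60 bases of it are shown, 5′ to 3′ on the strand of the gene and ending no later than the start site, with the pattern in capitals.
Pifo: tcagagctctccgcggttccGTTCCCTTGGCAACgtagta
Ccdc113: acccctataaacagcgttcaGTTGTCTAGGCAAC
Drc1: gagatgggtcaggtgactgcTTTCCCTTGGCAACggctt
Hydin: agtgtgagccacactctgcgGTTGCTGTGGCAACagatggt
Tekt2: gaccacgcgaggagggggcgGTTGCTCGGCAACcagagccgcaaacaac
Dynlrb2: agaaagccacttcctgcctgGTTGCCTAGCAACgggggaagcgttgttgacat
The stretches lie at chr3:106001498-106001537 (minus strand) for Pifo, chr8:95534066-95534099 (plus) for Ccdc113, chr5:30281354-30281392 (plus) for Drc1, chr8:110266936-110266976 (plus) for Hydin, chr4:126325689-126325737 (minus) for Tekt2 and chr8:116504944-116504996 (plus) for Dynlrb2. Pifo was the one gene of the 14 without a mismatch. The pattern ends with the letters GCAAC in all 6. Their expression values are given below with the parts of the cilium they belong to.

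In the lung of vehicle mice, the motile cilia genes were above the reference RNA without exception among the 32 measured. The median of their mean log2 ratios was 2.80, against -0.01 over all probes. The ratios ran from 0.47 for Dnah1 to 5.84 for Dnah6. In each of the 5 vehicle mice, 19 of the 32 were at least 4-fold above the reference, against 2.41% of all probes with such values. Ratios under 1 were found for the beta tubulin Tubb4b (0.73 ± 0.28, SD, n = 5), for Rfx2 (0.61 ± 0.14) and Rfx3 (0.48 ± 0.17), and for the dynein heavy chains Dnah9 (0.59 ± 0.12) and Dnah1 (0.47 ± 0.17). The probes of Dnah9 and Dnah1 were also the ones not well above background on all 18 arrays, with 11 and 17 arrays, and no member probe was saturated. A ratio to the reference depends on the reference as much as on the lung and does not rank the genes by abundance.

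**Figure D1:**
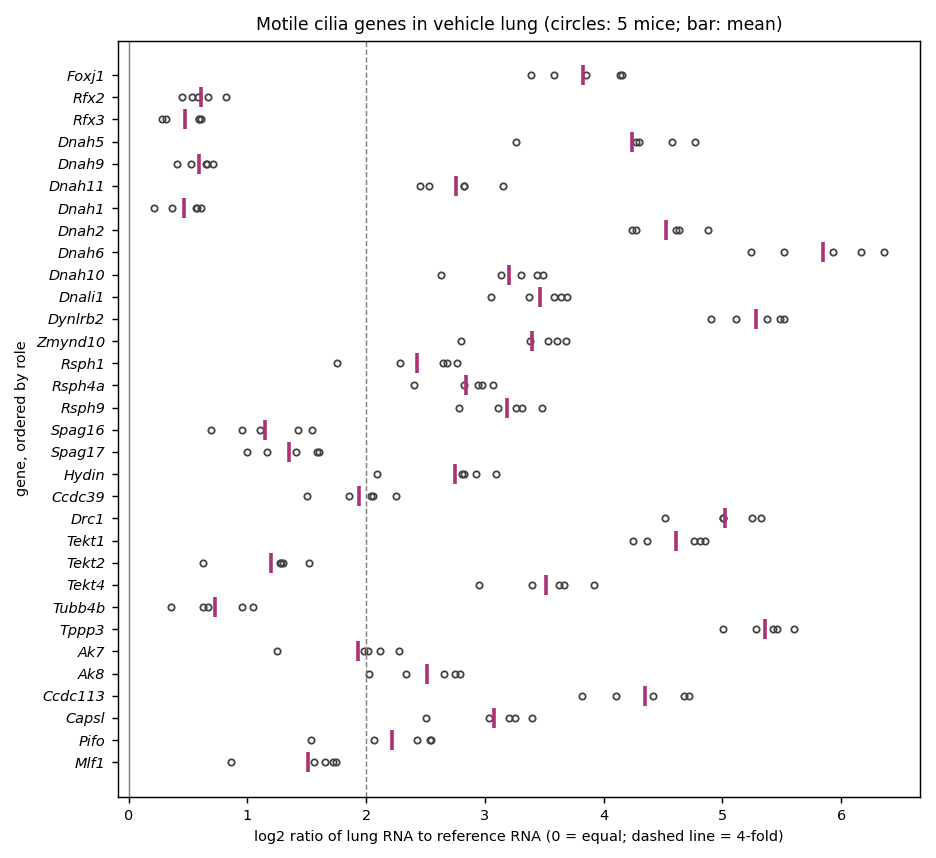
Log2 ratio of lung over reference RNA (x axis, 0 meaning equal abundance) in the 5 vehicle mice (circles) with their mean (bar), for the 32 motile cilia genes ordered by role (y axis). All means lie above 0, from 0.47 for Dnah1 to 5.84 for Dnah6, and the dashed line marks 4-fold.

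At no dose did the expression of a motile cilia gene change past the threshold, which was an adjusted p of 0.05 or less in limma together with a change of 1.5-fold or more. The count was 0 of 32 at the low dose, where 0.0898% of all probes passed, 0 at the medium dose (0.726% of all probes), 0 at the high dose (1.2%) and 0 for the high against the low dose (0.0449%). Each of these shares comes to less than 1 gene in a list of 32. At an unadjusted p under 0.05, 1 member was found at each dose against the vehicle, Rfx2 each time, and 0 for the high against the low dose, where 8.01%, 15.3%, 15.7% and 6.71% of all probes had such a p. The median log2 difference of the 32 genes was 0.09, -0.04 and 0.01 with rising dose, and -0.08 for the high against the low dose, where the median of all probes was 0.00 each time. With scaling between arrays, the medians at the medium dose (0.07) and for the high against the low dose (0.06) turned positive. The high-dose median was below 0 with the scanner software's ratios (-0.02), with Cy5 alone (-0.02), with the slide as a block (-0.05) and without slide 2 (-0.08), and the low-dose median without slide 2 (-0.01). In order of dose, values were positive for 26, 11 and 17 members. The precision of the arrays allowed a bound for most genes: the 95% interval of the difference lay within a 1.5-fold change for 25, 29 and 28 of the 32 members in order of dose, against 95.8%, 94.3% and 92.8% of all probes. The members with wider intervals at the high dose were Dnah5, Dnah6, Capsl and Pifo, with limits from -0.62 (Pifo) to 0.73 (Dnah5). No dose order was seen among the medians, and the mice given vehicle already spanned -0.44 to 0.22 in the median of the 32 genes, each expressed as the difference from the vehicle mean.

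**Figure D2:**
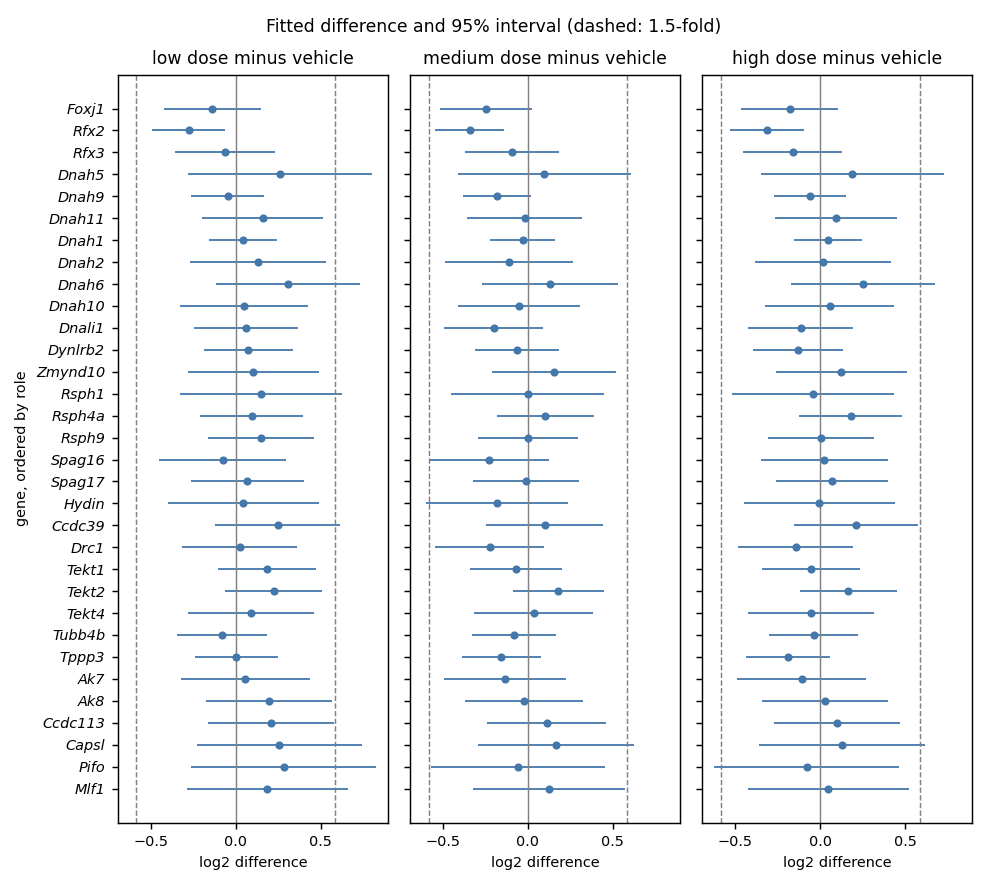
Fitted log2 difference from the vehicle (x axis, points) with its 95% interval (lines) for each of the 32 motile cilia genes (y axis, ordered by role) at the low, medium and high dose (panels). The dashed lines mark a 1.5-fold change, within which the intervals of 25, 29 and 28 genes lie, and the interval of Rfx2 lies below 0 in the 3 panels.

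Among the regulators, Rfx2 had the largest fall in value of all 32 genes at each dose. This winged-helix factor binds the X-box and acts in ciliated cells and in spermatids. Its log2 ratio was 0.67, 0.59, 0.82, 0.45 and 0.54 in the vehicle mice, 0.27, 0.09, 0.31 and 0.66 at the low dose, 0.16, 0.10, 0.31, 0.30 and 0.47 at the medium dose and 0.34, 0.19, 0.26 and 0.41 at the high dose. The 4 high-dose mice all lay below the lowest vehicle mouse (0.45), while mouse 10 at the low dose and mouse 15 at the medium dose lay within the vehicle range. Rfx2 was the one member without overlap at the high dose, where 8.11% of all probes had none. At the low and medium dose there was no such member (2.81% and 4.36% of all probes). The difference from the vehicle was -0.28 ± 0.10 (SE) at the low dose, -0.34 ± 0.10 (SE) at the medium dose and -0.31 ± 0.10 (SE) at the high dose, with adjusted p of 0.45, 0.0548 and 0.103 in limma. The medium-dose value lay close to the threshold of 0.05 and passed it with the slide as a block in the fit (adjusted p = 0.0265, against 0.0593 for the high dose), but the fold change stayed below 1.5. Within the slides, the high-dose minus vehicle value of Rfx2 was -0.36, -0.37 and -0.13 on slides 1, 2 and 3. For the medium dose it was -0.49, -0.33 and -0.07. For the low dose it was -0.45, -0.32 and 0.12, so the sign on slide 3 was the opposite.

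Foxj1, the forkhead factor that turns on the genes of motile cilia, had log2 ratios of 4.15, 4.14, 3.58, 3.39 and 3.85 in the vehicle mice, 3.67, 3.70, 3.60 and 3.77 at the low dose, 3.90, 3.43, 3.36, 3.48 and 3.70 at the medium dose and 3.56, 3.80, 3.46 and 3.75 at the high dose. Vehicle mice 1 and 2 were the highest of all 18, and each exposed group overlapped the vehicle mice 3 to 5. The difference was -0.18 ± 0.14 (SE) at the high dose with an adjusted p of 0.608, after -0.14 at the low and -0.25 at the medium dose. The log2 differences of Rfx3, which acts beside Rfx2, were -0.07, -0.10 and -0.16 at the 3 doses, with adjusted p between 0.666 and 0.953. The 3 regulators thus had values below 0 at each dose, and none passed the threshold. The dimmer probes of Rfx3 gave 0.02 and 0.14 at the high dose, so the sign of Rfx3 depends on the probe.

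Dynein heavy chains are the motors of the arms. Dnah5, a heavy chain of the outer arm, had log2 ratios of 4.77, 4.58, 4.30, 3.26 and 4.27 in the vehicle mice, 4.50, 4.80, 4.14 and 4.53 at the low dose, 5.04, 4.00, 4.29, 3.96 and 4.37 at the medium dose and 4.63, 4.74, 3.71 and 4.63 at the high dose. Vehicle mouse 4 was the lowest of all and high-dose mouse 18 stood below the other 3 high-dose mice, while medium-dose mouse 11 was the highest, so the spread within groups was larger than any difference between them. The high-dose difference of Dnah5 was 0.19 ± 0.26 (SE), with an adjusted p of 0.816 and a 95% interval of -0.35 to 0.73. For Dnah9, the outer arm heavy chain of the distal cilium, the ratios were 0.71, 0.65, 0.66, 0.41 and 0.53 in the vehicle mice, 0.78, 0.36, 0.41 and 0.61 at the low dose, 0.56, 0.38, 0.22, 0.48 and 0.40 at the medium dose and 0.60, 0.41, 0.34 and 0.76 at the high dose. All 4 groups overlapped and the high-dose difference was -0.06 ± 0.10 (SE) (adjusted p = 0.864). The remaining outer arm chain, Dnah11, differed by 0.16, -0.02 and 0.09 at the 3 doses.

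In the inner arm, Dnah6 had the largest rise in value of the 32 genes at the high dose. Its log2 ratio was 6.17, 5.93, 5.52, 5.24 and 6.36 in the vehicle mice, 6.13, 6.33, 5.84 and 6.30 at the low dose, 6.51, 5.78, 5.64, 5.71 and 6.23 at the medium dose and 6.12, 6.06, 5.77 and 6.45 at the high dose. The high-dose mice lay within the range of the vehicle mice, apart from mouse 20 (6.45), which was just above vehicle mouse 5 (6.36). The difference of Dnah6 was 0.25 ± 0.20 (SE) at the high and 0.31 ± 0.20 (SE) at the low dose, with adjusted p of 0.633 and 0.765. Dnah1, a heavy chain of the inner arm whose probe was dim, had ratios of 0.61, 0.37, 0.56, 0.22 and 0.57 in the vehicle mice, 0.44, 0.41, 0.53 and 0.65 at the low dose, 0.51, 0.36, 0.17, 0.57 and 0.56 at the medium dose and 0.52, 0.53, 0.38 and 0.62 at the high dose. Its groups overlapped and its high-dose difference was 0.05 ± 0.10 (SE) (adjusted p = 0.896), with the narrowest interval of the list. Dnah2 and Dnah10 differed by 0.02 and 0.06 at the high dose.

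Both smaller dynein subunits had values above 0 at the low dose and below 0 at the 2 higher doses. Dnali1, a light intermediate chain of the inner arm, had log2 ratios of 3.64, 3.69, 3.37, 3.05 and 3.58 in the vehicle mice, 3.44, 3.58, 3.32 and 3.76 at the low dose, 3.46, 3.27, 2.98, 2.97 and 3.65 at the medium dose and 3.29, 3.52, 3.08 and 3.54 at the high dose. Mice 13 and 14 at the medium dose were the lowest, below vehicle mouse 4, low-dose mouse 10 was above the highest vehicle mouse, and each exposed group overlapped the vehicle mice. The difference was -0.20 ± 0.14 (SE) at the medium and -0.11 ± 0.15 (SE) at the high dose, with adjusted p of 0.56 and 0.805. Dynlrb2, a light chain of the roadblock type, differed by -0.13 ± 0.13 (SE) at the high dose (adjusted p = 0.708). Zmynd10 helps to assemble dynein arms in the cytoplasm before they enter the cilium, and its ratios were 3.60, 3.53, 3.38, 2.80 and 3.68 in the vehicle mice, 3.34, 3.44, 3.25 and 3.98 at the low dose, 3.89, 3.25, 3.21, 3.43 and 3.98 at the medium dose and 3.45, 3.70, 3.27 and 3.68 at the high dose. Mice 10 and 15 had the highest values and vehicle mouse 4 the lowest, and the high-dose difference was 0.12 ± 0.19 (SE) (adjusted p = 0.837).

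The radial spokes, which connect the doublets with the central pair, were represented by 3 genes of the spoke head. For Rsph1 the log2 ratios were 2.77, 2.65, 2.29, 1.76 and 2.68 in the vehicle mice, 2.48, 2.78, 2.10 and 2.94 at the low dose, 2.90, 2.14, 1.92, 2.25 and 2.91 at the medium dose and 2.40, 2.49, 1.89 and 2.76 at the high dose. The lowest mouse of each group (4, 9, 13 and 18) lay between 1.76 and 2.10 and the highest between 2.76 and 2.94. The high-dose difference of Rsph1 was -0.04 ± 0.23 (SE) (adjusted p = 0.963), that of Rsph4a 0.18 and that of Rsph9 0.01. The dimmer probes gave -0.20 for Rsph1 and -0.03 for Rsph4a, so the sign of Rsph4a depends on the probe. The central apparatus was represented by Spag16, Spag17 and Hydin. Spag17, a scaffold of the central pair, had ratios of 1.59, 1.60, 1.00, 1.17 and 1.41 in the vehicle mice, 1.25, 1.76, 1.12 and 1.54 at the low dose, 1.64, 1.21, 1.07, 1.30 and 1.47 at the medium dose and 1.53, 1.57, 0.95 and 1.64 at the high dose. High-dose mouse 18 was the lowest of all 18 mice, and the other 3 high-dose mice lay inside the vehicle range or, for mouse 20, just above its upper end. The difference was 0.07 ± 0.16 (SE) with an adjusted p of 0.905. Spag16 and Hydin differed by 0.02 and -0.0043 at the high dose and by -0.23 and -0.18 at the medium dose. The dimmer probe of Hydin gave -0.14, -0.34 and -0.30 at the 3 doses, so the probes of this gene do not give the same value.

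Ccdc39, which with Ccdc40 forms the ruler that spaces the dynein arms and spokes along the doublet, was the second of the 3 largest rises in value at the high dose. Its log2 ratio was 2.04, 2.25, 1.86, 1.5 and 2.06 in the vehicle mice, 2.21, 2.45, 1.89 and 2.21 at the low dose, 2.63, 1.72, 1.76, 1.78 and 2.30 at the medium dose and 2.16, 2.42, 1.87 and 2.17 at the high dose. Mouse 11 at the medium dose was the highest and vehicle mouse 4 the lowest, and all exposed groups overlapped the vehicle mice. The difference was 0.21 ± 0.18 (SE) at the high dose (adjusted p = 0.644). Drc1, part of the nexin-dynein regulatory complex, had the opposite sign with -0.14 ± 0.16 (SE) (adjusted p = 0.767).

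Tektins are filaments inside the doublets. Tekt1 had log2 ratios of 4.76, 4.86, 4.36, 4.25 and 4.81 in the vehicle mice, 4.77, 4.88, 4.57 and 4.96 at the low dose, 4.65, 4.40, 4.31, 4.45 and 4.88 at the medium dose and 4.59, 4.67, 4.24 and 4.71 at the high dose. Each exposed group overlapped the vehicle mice, and the difference was -0.06 ± 0.14 (SE) at the high dose with an adjusted p of 0.912. Tekt2 was positive at each dose (0.22, 0.18 and 0.17), with adjusted p between 0.588 and 0.737, and vehicle mouse 5 (0.63) was far below the other vehicle mice (1.27 to 1.52). Tekt4 differed by -0.06 at the high dose.

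Tubb4b is a beta tubulin of the axoneme that other cells use as well, and its log2 ratios were 0.95, 0.62, 1.05, 0.35 and 0.67 in the vehicle mice, 0.68, 0.57, 0.57 and 0.78 at the low dose, 0.73, 0.46, 0.48, 0.55 and 1.03 at the medium dose and 0.54, 0.79, 0.66 and 0.77 at the high dose. Its vehicle mice had both the lowest and the highest value, so that all exposed mice lay in between. The high-dose difference was -0.04 ± 0.13 (SE) (adjusted p = 0.938). Tppp3, a tubulin polymerization promoting protein found in ciliated cells, had the largest fall in value at the high dose after Rfx2. Its ratios were 5.46, 5.60, 5.00, 5.29 and 5.42 in the vehicle mice, 5.23, 5.53, 5.14 and 5.54 at the low dose, 5.41, 5.33, 5.00, 5.03 and 5.21 at the medium dose and 5.08, 5.31, 5.03 and 5.24 at the high dose. The 4 high-dose mice, from 5.03 to 5.31, lay within the vehicle range (5.00 to 5.60) but below the upper 3 vehicle mice, and the difference was -0.19 ± 0.12 (SE) with an adjusted p of 0.498.

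Adenylate kinases 7 and 8 interconvert adenine nucleotides in cilia. For Ak7 the log2 ratios were 2.28, 2.12, 2.01, 1.25 and 1.98 in the vehicle mice, 1.85, 2.00, 1.75 and 2.34 at the low dose, 2.29, 1.61, 1.55, 1.71 and 1.80 at the medium dose and 1.95, 1.97, 1.42 and 1.95 at the high dose. Vehicle mouse 4 and high-dose mouse 18 were each far below the rest of their group, and the difference was -0.11 ± 0.18 (SE) (adjusted p = 0.861). Ak8 differed by 0.03 at the high dose. Pifo, a protein of cilia with the paired X-box letters shown above, had ratios of 2.43, 2.53, 2.06, 1.54 and 2.54 in the vehicle mice, 2.30, 2.94, 1.82 and 2.95 at the low dose, 2.78, 2.08, 1.65, 1.75 and 2.54 at the medium dose and 2.19, 2.30, 1.60 and 2.47 at the high dose. Its values reached from 1.54 to 2.54 among the vehicle mice and from 1.65 to 2.78 among the medium-dose mice, so the groups overlapped, and the high-dose difference was -0.08 ± 0.26 (SE) (adjusted p = 0.938). Ccdc113, the calcium-binding protein gene Capsl and Mlf1, all 3 high in ciliated cells, differed by 0.10, 0.13 and 0.05 at the high dose and by 0.21, 0.26 and 0.18 at the low dose, without passing the threshold.

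**Figure D3:**
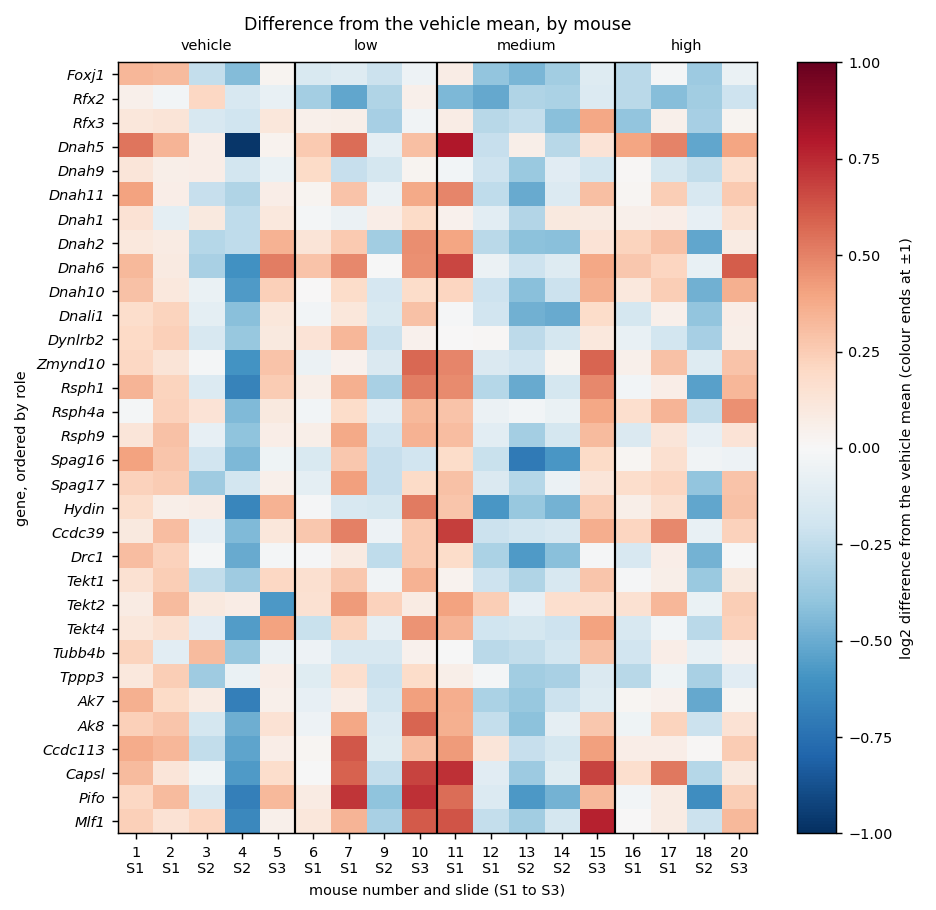
Log2 difference from the vehicle mean (colour) of each of the 32 motile cilia genes (rows, ordered by role) in each of the 18 mice (columns, ordered by dose group, with mouse number and slide S1 to S3 below). Columns of slide 2 are mostly blue and columns of slide 3 mostly red in all 4 groups, while the row of Rfx2 is blue in most exposed mice.

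Genes that take part in motile cilia but were not among the 36 gave a like picture. Of 90 further genes listed, 80 had a named probe, and 0 of the 80 passed the threshold in any of the 4 comparisons. At an unadjusted p under 0.05 there were 5, 4 and 2 of the 80 in order of dose (8.01%, 15.3% and 15.7% of all probes), and 2 for the high against the low dose (6.71%). The median difference of the 80 genes was 0.12, -0.02 and -0.02 with rising dose. The regulators of multiciliation in this list, among them Mcidas, Gmnc, Ccno and Myb, had high-dose values of -0.10, -0.17, 0.20 and 0.27. Cfap300, which takes part in the assembly of dynein arms, was singled out after its values were seen. It differed by -0.22 ± 0.10 (SE), -0.35 ± 0.09 and -0.44 ± 0.10 in order of dose, with adjusted p of 0.59, 0.0418 and 0.0131, so that at the medium and high dose it missed only the fold change limit. Intraflagellar transport genes, which build primary as well as motile cilia, showed 0 of 23 past the threshold in each comparison, with 0, 2 and 4 at an unadjusted p under 0.05 in order of dose and 3 for the high against the low dose, beside the same shares of all probes. Their median at the high dose was 0.09, from -0.30 for Ift140 to 0.23 for Dync2h1.

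The single X-box element GTTGCC was found in 49.3% of the 71 further motile cilia genes with a promoter entry and in 47.4% of the 19 intraflagellar transport genes, the paired pattern in 39.4% and 15.8%.

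The other cells of the airway were measured on the same arrays. Of 7 club cell markers with a probe, 0 passed the threshold at any dose. At an unadjusted p under 0.05 there were 0, 1 and 0 in order of dose (8.01%, 15.3% and 15.7% of all probes). All 7 had values below 0 at the medium dose, with a median of -0.36, from -0.79 for Bpifb1 to -0.16 for Cbr2. At the high dose 2 of the 7 were above 0, and the median was -0.04. Cyp2f2 had the lowest adjusted p at both doses (-0.46 and -0.24, adjusted p of 0.234 and 0.662). Scgb1a1, the main secretory protein of club cells, had a mean log2 ratio of 7.66 ± 0.41 (SD, n = 5) in vehicle lung and 7.62 ± 0.38 (n = 4) at the high dose. Muc5b, a gel-forming mucin, was at 2.76 ± 0.71 and 2.90 ± 1.46, and reached from 1.09 to 4.75 among the medium-dose mice. Of 5 basal cell markers, Krt15 passed the threshold at the medium and high dose. This keratin of basal cells rose by 0.68 ± 0.15 (SE) at the medium and by 0.87 ± 0.16 at the high dose (adjusted p of 0.012 and 0.00229), from a vehicle mean of -0.86 to 0.01 at the high dose, with a probe well above background on 16 of the 18 arrays. The other 4 basal cell markers, Trp63, Ngfr, Krt14 and Krt5, had values below 0 at the high dose (-0.37, -0.15, -0.12 and -0.05) and did not pass. The adjusted p of Trp63, a transcription factor of basal cells, was 0.0143 with a change of less than 1.5-fold. The median of the 5 was -0.12, so Krt15 went against the rest of its list. Among the endothelial, alveolar, macrophage and cardiomyocyte markers, the threshold was passed by Pecam1 alone, with a rise of 0.69 ± 0.11 and 0.74 ± 0.12 at the medium and high dose (adjusted p of 0.000968 and 0.000597). Pecam1 also went against most of its list, since Cdh5, Kdr and Cldn5 had high-dose values of -0.10, -0.10 and -0.19, Tek one of 0.31, and the median of the 5 endothelial markers was -0.10. All 7 alveolar type 2 markers and all 4 alveolar type 1 markers had values below 0 at the medium and high dose, with high-dose medians of -0.23 and -0.26. Of these 11, Abca3 (-0.35 at both doses, adjusted p of 0.0264 and 0.0335) and Slc34a2 (-0.37 at the high dose, adjusted p of 0.0401) passed the limit on p but not that on fold change.

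The motile cilia genes varied between the slides that carried the arrays. After their values by mouse had been seen, the slide on which an array was hybridized was added to the fit as a term beside the dose groups. All 4 groups were on each of the 3 slides, which held 8, 6 and 4 arrays, so that slide and dose can be told apart. The column on the slide followed the dose group, and these cannot be told apart. The slide term had an adjusted p of 0.05 or less (F test in limma) in 22 of the 32 members, against 2.73% of all probes. In this fit, slide 2 was set against the mean of slides 1 and 3. All 32 members were lower on slide 2 by this measure, with a median of -0.42 on the log2 scale against 0.00 over all probes. This difference was -0.80 for Pifo, -0.67 for Rsph1 and -0.62 for Capsl, and it was close to 0 for Rfx2 (-0.02) and Tekt2 (-0.03). The median residual SD of the members was 0.30 without the slide term and 0.20 with it, whereas that of all probes went from 0.15 to 0.14.

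Mouse by mouse, the 6 mice of slide 2 had median differences from the vehicle mean of -0.44 to -0.09, the 4 mice of slide 3 of 0.10 to 0.30, and the 8 mice of slide 1 of -0.21 to 0.30. Counted against the mean of their own dose group, 0 to 10 of the 32 genes were higher in the mice of slide 2. The counts were 26 to 30 in those of slide 3 and 6 to 31 in those of slide 1. Of all probes, 48.1% (mouse 18) to 51.3% (mouse 3) were above the group mean in a mouse. Mice 6 and 12 of slide 1, with 7 and 6 genes above their group mean, show that a low value was not limited to slide 2. The further motile cilia genes followed, with medians of -0.43 to -0.03 on slide 2 and 0.08 to 0.31 on slide 3. The club cell markers had medians of -1.59 to -0.15 on slide 2 and 0.12 to 0.84 on slide 3, and of -1.68 to 0.41 on slide 1. The markers did not move together. In mouse 12, which had the lowest median, Scgb1a1 (7.66), Cbr2 (5.31) and Cyp2f2 (6.43) were near their vehicle means (7.66, 5.28 and 6.605). Muc5b (1.09), Bpifa1 (0.69), Bpifb1 (1.92) and Scgb3a1 (1.79) were well below theirs (2.76, 3.65, 3.85 and 4.07). The pulmonary vein cardiomyocyte markers, a tissue around the large lung veins, ranged from -1.99 to 0.93 on slide 2, 0.98 to 1.77 on slide 3 and -1.41 to 2.50 on slide 1. The part of the tissue section, of the mice and of the hybridization in this pattern was not tested.

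The slide pattern depended on the scaling of the arrays. The SD of all log2 ratios of an array was 0.85 to 0.90 on slide 2, 0.91 to 0.94 on slide 1 and 0.91 to 0.95 on slide 3. The median absolute deviation, which gives extreme ratios less weight, overlapped between slides 1 and 2. It was 0.31 to 0.36 on slide 2, 0.34 to 0.36 on slide 1 and 0.36 to 0.40 on slide 3. The 1344 probes at least 4-fold above the reference in each vehicle mouse, whatever their gene, were also compared between slides. Their median on slide 2 against the mean of slides 1 and 3 was -0.15, and 80% of them were lower by this measure. The 658 probes at least 4-fold below the reference had a median of 0.13. Scaling after loess gave the arrays the same median absolute log2 ratio, not the same SD. With it, the slide term passed in 1 of 32 members, against 1.82% of all probes. The median member difference on slide 2 was then -0.23, and 29 of the 32 were still lower there. The median of the 1344 probes turned to 0.07.

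**Figure D4:**
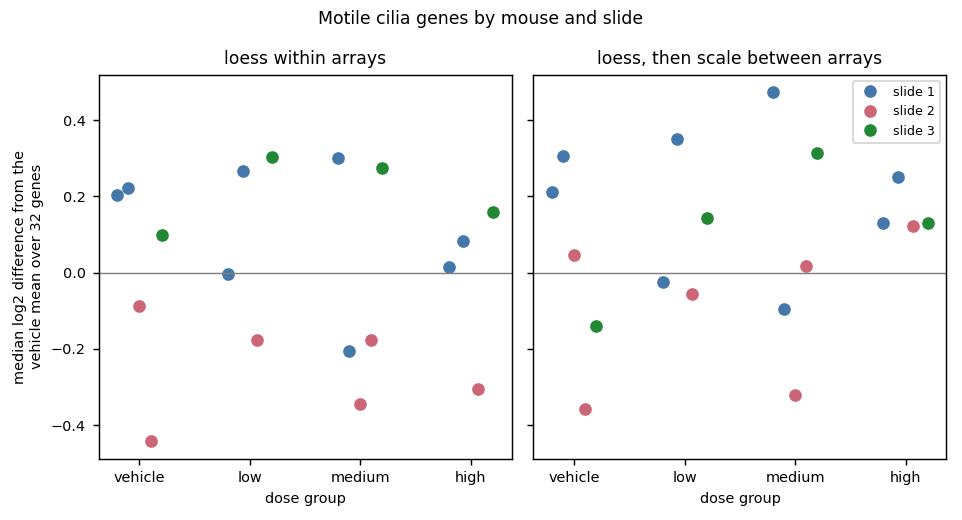
Median log2 difference from the vehicle mean over the 32 motile cilia genes (y axis) for each of the 18 mice (points) by dose group (x axis) and slide (colour), with loess within arrays (left panel) and with scaling between arrays after it (right). On the left, the mice of slide 2 lie between -0.44 and -0.09 and those of slide 3 between 0.10 and 0.30 in all dose groups, and on the right the slides overlap, with slide 2 between -0.36 and 0.12.

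Dose was then compared within the slides. The median high-dose minus vehicle difference of the 32 genes was -0.17 on slide 1 (2 against 2 mice), -0.07 on slide 2 (1 against 2) and 0.01 on slide 3 (1 against 1). For the medium dose it was -0.16, -0.02 and 0.09, and for the low dose -0.08, 0.10 and 0.16. These values differ in sign between slides and are smaller than the difference between the slides themselves. With the slide as a block in the fit, 0 of the 32 members passed the threshold at any dose. The 95% interval then lay within a 1.5-fold change for all 32 at each of the 3 doses against the vehicle. It did so for 31 in the high against the low dose. The shares of all probes under the block are not given here. Without the block, 95.8%, 94.3% and 92.8% of all probes had such an interval in order of dose. Beside Rfx2, the block fit gave intervals below 0 for Foxj1, Dnali1 and Drc1 at the medium dose. At the high dose it did so for Foxj1, Dynlrb2 and Tppp3. Adjusted p in limma was 0.144 to 0.271 for these values. For the high against the low dose, the intervals of Dynlrb2, Tekt1, Tppp3 and Pifo lay below 0 (adjusted p of 0.415 to 0.594). The share of all probes with such intervals in the block fit is not given here. Without the block, 15.3% of all probes had an unadjusted p under 0.05 at the medium dose. It was 15.7% at the high dose and 6.71% for the high against the low dose.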

How the data were processed

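For each of 18 mice, the authors deposited scanner output with median intensities of both channels, neither background-subtracted nor normalized, flags for outlier spots and for spots well above background, and the log10 ratio of the scanner software (Feature Extraction 11.0.1.1 per the file headers). The authors also deposited a table of normalized log2 ratios, whose columns correlated over probes with the ratios used here at r = 0.996 to 0.998 per array. From the median intensities, log2 ratios of Cy5 over Cy3 were computed with no background subtracted, which follows the methods of the paper, and normalized by loess within arrays in R 4.3.3 with limma 3.58.1. Control and outlier spots (215 to 307 per array) had no weight, and spots of one probe were averaged. Limma fitted the 4 groups together, with Benjamini-Hochberg adjustment of the p-values over 55681 probes. The paper's MAANOVA test was not run.

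Probes were named through RefSeq accessions (assembly GRCm38.p6, for names only), which named 27235 probes with 20660 symbols. Shown with every mouse's value were 14 genes chosen to stand for the roles and the 3 largest rises and 3 largest falls at the high dose. The members, the other gene lists and the tests were chosen with earlier results of these data known. Alternatives were the ratios of the scanner software, the table of the authors, normexp correction (offset 50), centring on the median, scale and Aquantile normalization, Cy5 alone, the slide as a block, a filter on dim probes, outlier spots kept, only the groups compared, no fold change limit, all probes of a gene, and each mouse left out. The slide term by setting, the further motile cilia genes by setting and the fits without slide 2 were added after the data were seen. The fit was also run on simulated data with independent noise, no slide effect and added changes well above the 1.5-fold limit. That run does not show how the fit handles smaller changes or variation between slides. Between 51.5% and 61.1% of probes were well above background in Cy5 on an array, and precision is limited by how many arrays there are.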

Additional observations from a re-analysis of the deposited data

Results flagged for a closer look

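Of 128 combinations of a motile cilia gene and a dose group, 8 held a mouse whose value stood apart from the rest of its group by Dixon's criterion, and chance gives about 1 in 20. High-dose mouse 18 was low for Dnah5 (3.71, the others from 4.63), Spag17 (0.95, the others from 1.53) and Ak7 (1.42, the others from 1.95). Vehicle mouse 4 was low for Hydin (2.09, the others from 2.81), Ak7 (1.25, the others from 1.98) and Mlf1 (0.86, the others from 1.56). Both mice were on slide 2. Vehicle mouse 5 on slide 3 was low for Tekt2 (0.63, the others from 1.27), and low-dose mouse 7 on slide 1 was high for Spag16 (1.41, the others up to 0.99).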

How the results depend on the processing

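The count of 0 members past the threshold in each comparison held in all alternatives with the fold change limit, with all mice and with each mouse left out. With the slide as a block and no fold change limit, it was 1 at the medium dose, Rfx2. The share of all probes passing in that setting is not given here, so this count cannot be set against it. The number of members with a slide term at an adjusted p of 0.05 or less was 22 in the main fit (2.73% of all probes). It fell to 10 with normexp correction (1.19% of all probes) and to 4 with the scanner software's ratios (0.596%). With scale normalization it was 1 (1.82%), with Cy5 alone 10 (3.69%) and with median centring 30 (58%). With 1 mouse left out, it lay between 10 (without low-dose mouse 9) and 25 (without medium-dose mouse 12). The median of the members was -0.01 to 0.17 at the low, -0.06 to 0.07 at the medium and -0.08 to 0.14 at the high dose over the alternatives with all mice or without slide 2, with a sign that changed at each dose under at least 1 of them. Without vehicle mouse 4 these medians were -0.02, -0.15 and -0.10. Rfx2 was negative at each dose in every setting, with an adjusted p at the medium dose of 0.0198 to 1 over the alternatives with all mice (at or under 0.05 with Cy5 alone, with dim probes left out and with the slide block) and of 0.0249 to 0.144 with 1 mouse left out. At the high dose it was 0.0153 with Cy5 alone, up to 0.847 in the other settings, and 0.0519 to 0.269 with 1 mouse left out. No paired analysis was possible because the groups share no replicate numbers, while the slide, which held all groups, served as a block. Dnah9 and Dnah1 were limited by signal over background.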
